A study of Mus musculus with 9 samples.

Results

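The cells described here were the Agt/Slc6a11 cells of 3 mouse brain libraries, read as hypothalamic astrocytes. They numbered 358 of the 10113 cells of those libraries (3.54%, exact Clopper-Pearson 95% interval 3.19 to 3.92%) and came from a table of 29571 cells in all. A cell was a member if it held 2 or more unique molecular identifiers (UMIs, each standing for 1 captured transcript) of Agt and Slc6a11 summed. It also had to hold fewer than 3 UMIs of the ependymal genes Tmem212 and Ccdc153 summed and none of Rax, a transcription factor of tanycytes. Of the cells that met the first condition, 13 were left out by the ependymal genes and 8 by Rax. Agt lies at chr8:124556534-124569706 on the minus strand and Slc6a11 at chr6:114131241-114249952 on the plus strand, both as gene bodies of the GENCODE annotation on GRCm38.

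The study profiled single cells of the cortex, hypothalamus and brainstem of male C57BL/6J mice aged 9 to 11 weeks by droplet 3' RNA sequencing. There was 1 library for each region and sleep group, with the tissue of several mice pooled in each. The sleep groups were normal sleep (NS), sleep deprivation (SD, 12 h) and recovery sleep (RS). RS followed the same deprivation and lasted 24 h in the text of the labels but 12 h in the group name. All tissue was taken at zeitgeber time 12, dissociated with papain and passed over myelin removal beads, so that no group was free of those steps.

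The 9 libraries are numbered here in the column order of the table. The sources used here do not link the library codes to samples. The reading of libraries 4, 5 and 6 as hypothalamus is an inference from column order alone, and none of the 3 was assigned to a sleep group. Library, region and sleep group cannot be told apart in these libraries, and no comparison of NS, SD and RS was made. An outside tie was a barcode list for brainstem NS among the supplementary tables. All 1999 barcodes on it were in library 7, against 5 to 13 in each of the other libraries. Each library stood alone, without a replicate, so intervals are given for counting error only and no p-value is given.

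Astrocytes are the glial cells that surround synapses and contact blood vessels with their end-feet. They take up glutamate and GABA from the extracellular space, buffer potassium, move water and supply lipids and metabolites to neurons. Agt encodes angiotensinogen, the precursor of the angiotensin peptides, which the brain makes mainly in astrocytes, and Slc6a11 encodes GAT-3, the main astrocytic GABA transporter. Both are known to be more strongly expressed in astrocytes of the hypothalamus, thalamus, midbrain and hindbrain than in those of the cortex. In the hypothalamus, astrocytes lie beside the hormone-releasing neurons and the tanycytes that line the floor of the ventricle.

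Library 4 held 138 members among 3491 cells (3.95%, interval 3.33 to 4.65%). Library 5 held 182 among 2706 cells (6.73%, 5.81 to 7.74%), and library 6 held 38 among 3916 cells (0.970%, 0.688 to 1.33%). The 3 intervals did not overlap, and library 6 supplied the fewest members from the most cells. The same rule took 14, 11 and 18 cells from libraries 1, 2 and 3, under 1% of the cells of each (0.347 to 0.656%). In libraries 7, 8 and 9 it took 275, 394 and 351 cells, or 7.37, 11.2 and 9.45%. Cells of the same rule in libraries 7 to 9 are therefore the only ones numerous enough to set beside the members.

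Libraries 4 to 6 stood apart from the other 6 by pituitary RNA. Gh, which encodes growth hormone, gave 25.3, 27.9 and 32.1% of all UMIs in libraries 4, 5 and 6, at most 0.00755% in libraries 1 to 3 and at most 0.000523% in libraries 7 to 9. Within the members Gh gave 18.2, 12.8 and 24.9% of UMIs, and in microglial cells of the same libraries 7.56, 11.1 and 21.1%. Every level below is therefore given as CPM, the UMIs of a gene in each 1000000 UMIs without Gh. The median member held 591, 404 and 736.5 UMIs without Gh in libraries 4, 5 and 6, and the cells of the same rule in libraries 7, 8 and 9 held 772, 666.5 and 933. In all, the members gave 227583 UMIs without Gh, of which 36124 came from library 6, so that library had the widest intervals.

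The hormone RNA was unevenly spread over the members. In 78 members (39 in library 4, 18 in library 5, 21 in library 6) 5% or more of the UMIs came from 7 pituitary hormone genes (Gh, Prl, Pomc, Cga, Lhb, Fshb and Tshb). The other 280 (99, 164 and 17) are called hormone-low members. The 5% limit was chosen after the data were seen, and 25 members lay between 2 and 10%. Hormone-high members had a median of 1236.0 UMIs and 8 UMIs of the astrocyte core genes, against 472 UMIs and 16 core UMIs in hormone-low members, over the 3 libraries and with Gh counted. Without Gh the median UMIs were 756, 643.5 and 704 in hormone-high and 550, 393 and 746 in hormone-low members of libraries 4, 5 and 6. Among the 38 members of library 6, the hormone-high ones were the majority. Results are given for all members and for hormone-low members, and the part that the hormone RNA played in them was not tested.

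**Figure D1:**
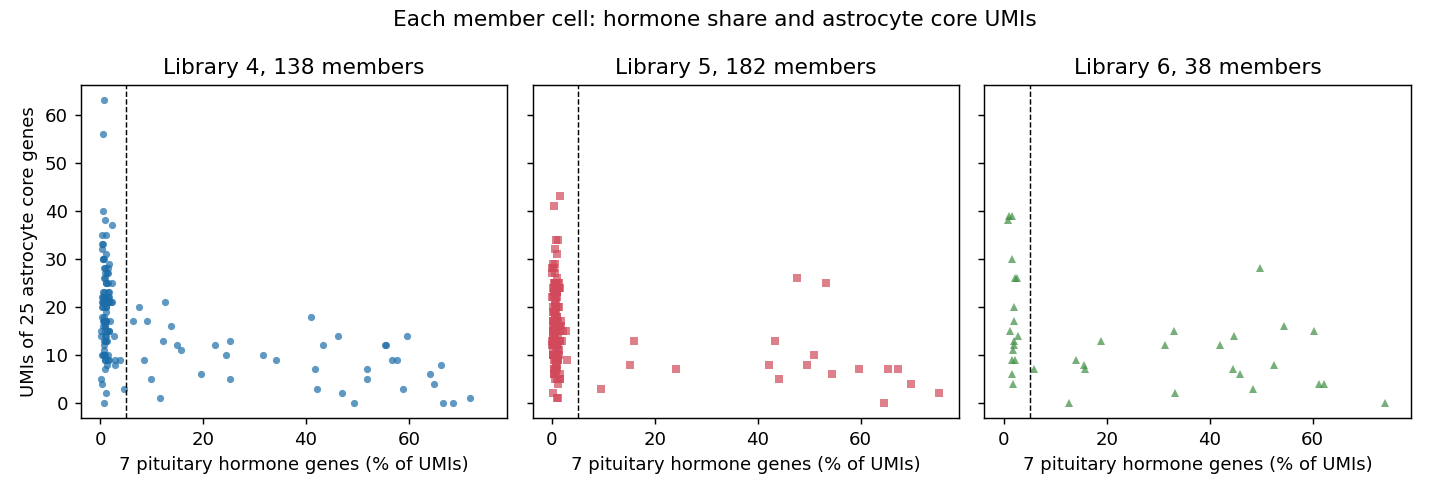
UMIs of 25 astrocyte core genes in each member (y axis, UMIs per cell) against the share of the cell's UMIs from 7 pituitary hormone genes (x axis, %), with 1 panel and 1 point per cell for each of libraries 4, 5 and 6. The dashed line marks 5%, which 39 of 138, 18 of 182 and 21 of 38 members reached, and the points right of it mostly lie low on the y axis.

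Other marks of mixed barcodes were also counted. At least 2 UMIs of the neuronal, microglial, endothelial or pericyte lists were held by 151 members (61, 59 and 31), 85 of them only through the long non-coding RNA Meg3. These are called possible doublets, and 207 members were free of them. Of the 549 barcodes that occurred in more than 1 library, 16 belonged to members (6 in library 4 and 10 in library 5). Mitochondrial transcripts gave 7.08, 9.10 and 5.04% of the members' UMIs without Gh, against 12.7, 10.5 and 14.0% in libraries 7, 8 and 9.

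The members were chosen by their UMIs of Agt and Slc6a11 (with Tmem212, Ccdc153 and Rax low or absent), so the values of these genes are a description. Both genes were present in 218 members, Agt alone in 105 and Slc6a11 alone in 35. Agt reached 2419 CPM in library 4 (256 UMIs), 4321 in library 5 (370) and 1661 in library 6 (60). Slc6a11 reached 1748 CPM (185 UMIs), 1950 (167) and 1218 (44). Library 5 was highest and library 6 lowest for both genes. There were 1.38, 2.22 and 1.36 Agt UMIs for each Slc6a11 UMI in libraries 4, 5 and 6, and 1.18, 1.33 and 1.00 in libraries 7, 8 and 9.

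The threshold fell where cells with and without an astrocyte profile met. Exactly 2 UMIs were held by 179 members, and 618 cells just outside held exactly 1. In library 4, cells with 1 UMI had a median of 2 core UMIs, cells with 2 had 13, cells with 3 had 18 and cells with 4 or more had 20.5. The share of these cells with 6 or more core UMIs was 38.7, 75, 96.9 and 100%, against 8.61% of cells with no Agt or Slc6a11 UMI. In library 5, 51.6% of cells with 1 UMI and 87.1% of cells with 2 reached 6 core UMIs. In library 6 these shares were 29.2 and 72.7%. Cells just outside the rule thus included many with an astrocyte profile, and 16 members held fewer than 3 core UMIs, 11 of them hormone-high.

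The label was checked on 25 astrocyte core genes that the rule did not use. Their summed level was 21980.5 CPM in library 4 (Poisson 95% interval 21096 to 22892), 32929 in library 5 (31725 to 34168) and 14340 in library 6 (13131 to 15629). Beside them stood 2 sets of reference cells of the same libraries with no Agt or Slc6a11 UMI, which show how much of a transcript other cell types carried. Microglial reference cells (147, 134 and 36 cells) had 2131, 4326 and 2099 CPM of the core genes, and endothelial reference cells (133, 166 and 45 cells) had 2858, 3834 and 3129. Of the 25 genes, 22, 22 and 19 were at least 2-fold above the higher reference in libraries 4, 5 and 6, with median folds of 9.97, 8.13 and 4.92. Among all genes of 100 CPM or more, 21.3, 26.0 and 19.9% were at least 2-fold above it, with medians of 1.05, 1.07 and 1.05. The core list and the lists below were counted over every listed gene, with no such minimum. Genes without a UMI could not be 2-fold above reference, so list counts and these shares are not strictly alike. In hormone-low members the core sum was 29543, 35525 and 23277 CPM, and 24, 23 and 21 genes were 2-fold above reference. In hormone-high members the sum was 9043, 14814 and 8623 CPM, between the reference cells and the hormone-low members.

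Glutamate uptake genes of the core were above both references. Slc1a2, which encodes the transporter GLT-1, was at 1285, 2020 and 858 CPM in libraries 4, 5 and 6, against 41.8, 202 and 0 CPM in the microglial and 48.4, 87.1 and 0 CPM in the endothelial reference. Slc1a3, which encodes GLAST, was at 1588, 2452 and 775 CPM, against 146, 311 and 157 CPM in microglia. Both transporters were highest in library 5 and lowest in library 6. Glul, the glutamine synthetase that turns the glutamate taken up into glutamine, was at 1257, 2289 and 581 CPM, but endothelial cells held 735, 1416 and 715 CPM, so it separated the members little. Of the 9 genes of glutamate handling, 6, 5 and 5 were at least 2-fold above reference, against 21.3, 26.0 and 19.9% over all genes of 100 CPM or more.

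Ion and water genes formed the next group. Kcnj10, the inward rectifier potassium channel Kir4.1, was at 312, 245 and 166 CPM against 0, 15.6 and 26.2 CPM in microglia. The gap junction gene Gja1 (connexin 43) was at 879, 1121 and 443 CPM and Gjb6 (connexin 30) at 501, 817 and 138 CPM. All 3 were lowest in library 6, where Kcnj10 and Gjb6 rested on 6 and 5 UMIs. Of the 13 potassium, sodium and water genes, 10, 10 and 9 were at least 2-fold above reference, and of the 3 connexins 3, 2 and 2, against the same 21.3, 26.0 and 19.9%.

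Metabolic enzymes and a transcription factor of the core were above reference too. Aldoc, the brain isoform of the glycolytic enzyme aldolase, was at 1824, 3643 and 1356 CPM against 178, 451 and 315 CPM in microglia. Ndrg2 was at 1389, 1938 and 1246 CPM against 31.3, 140 and 26.2 CPM. The astroglial transcription factor Sox9 was at 293, 222 and 194 CPM against 10.4, 109 and 26.2 CPM, and Aldh1l1, a folate enzyme used as a pan-astrocyte marker, at 56.7, 175 and 111 CPM against 0, 15.6 and 0 CPM. Of the 25 core genes, Htra1, a secreted serine protease, was the 1 with no UMI in library 6.

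Shares of cells with a UMI were read beside the levels. An Aldoc UMI was found in 63.0, 69.2 and 65.8% of members and in 7.48, 12.7 and 13.9% of microglial reference cells, whose median depths were close (591, 404 and 736.5 against 555, 415 and 753.5 UMIs without Gh). After each cell had been thinned to 300 UMIs without Gh and shallower cells left out, the shares were 38.5, 60.6 and 36.8% in members and 4.08, 9.02 and 5.56% in microglia. Mt1, a metallothionein, was found in 91.3, 93.4 and 100% of members, but also in 36.7, 47.0 and 63.9% of microglia.

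**Figure D2:**
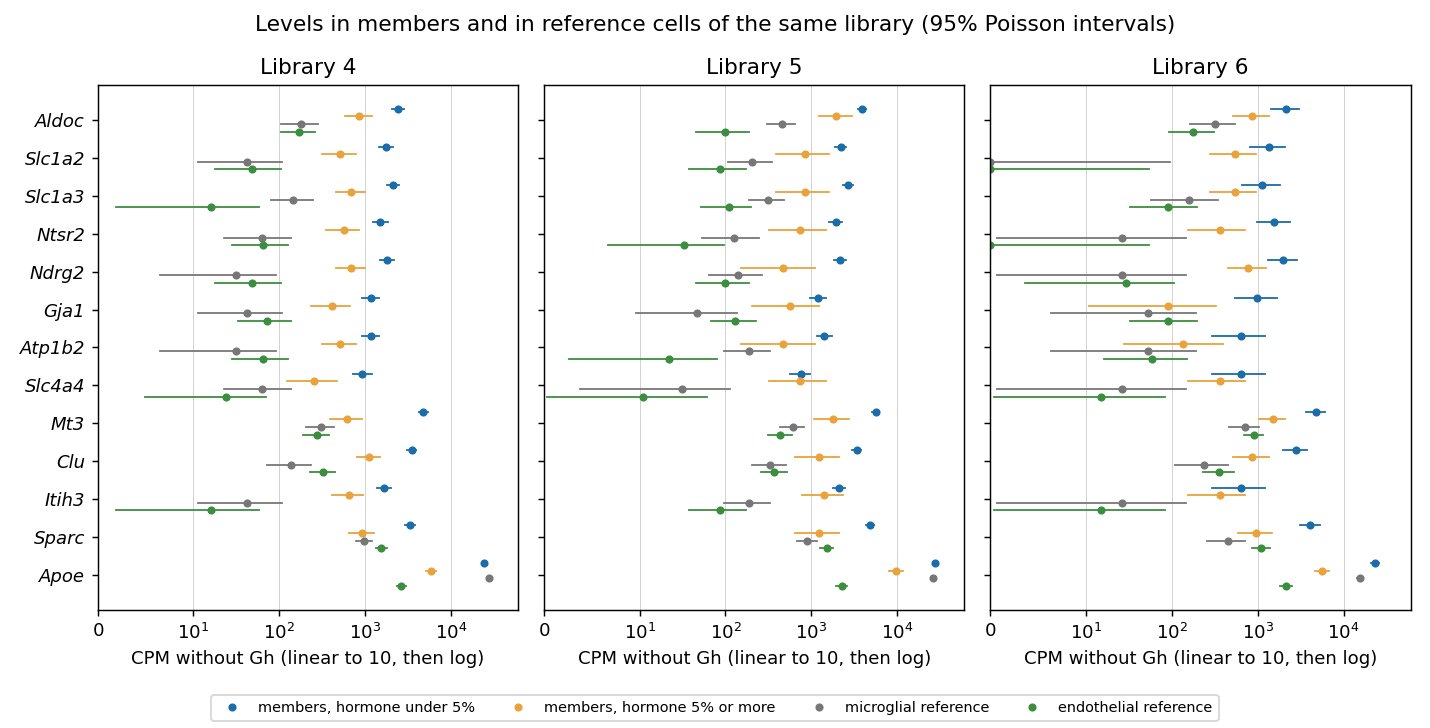
Levels of 13 genes (x axis, CPM without Gh, linear to 10 and logarithmic above; 1 line per gene) in hormone-low members, hormone-high members, microglial and endothelial reference cells of libraries 4, 5 and 6. Points are summed UMIs of all cells of a set and bars are Poisson 95% intervals of counting error; Aldoc was at 1824, 3643 and 1356 CPM over all members against 178, 451 and 315 CPM in microglia.

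Lists of other cell types marked what else the barcodes carried. The microglial list summed to 784, 1214 and 111 CPM in members against 27523, 27013 and 12490 CPM in the microglial reference, which microglial genes had chosen. The endothelial list summed to 113, 747 and 803 CPM against 12061, 18179 and 7078 CPM in endothelial cells. The neuronal list summed to 4971, 2522 and 6229 CPM, of which Meg3 alone gave 4356, 2149 and 5675 CPM. Slc17a7, a vesicular glutamate transporter of excitatory neurons, had no UMI. Slc17a6, Syt1 and Snap25 of the same list had 1, 13 and 8 UMIs in hormone-high members of library 4. Meg3 was at 1985, 2287 and 5773 CPM in microglia too, and at 8889, 7174 and 7897 CPM in hormone-high against 1707, 1429 and 2200 CPM in hormone-low members. The pituitary list without Gh summed to 27868, 3375 and 41801 CPM in members and to 3968, 521 and 2839 CPM in hormone-low members. Of the 9 neuronal genes 3 were 2-fold above reference in each library, and 2, 3 and 5 in hormone-low members of libraries 4, 5 and 6. Of the 10 tanycyte and pituicyte genes 0, 4 and 2, of the 10 oligodendrocyte genes 0, 3 and 0 and of the 7 ependymal genes 1, 0 and 0 were so in libraries 4, 5 and 6, and none of the 5 blood genes was. Most of these counts were near or below the 21.3, 26.0 and 19.9% over genes of 100 CPM or more, a minimum that the lists did not have.

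**Figure D3:**
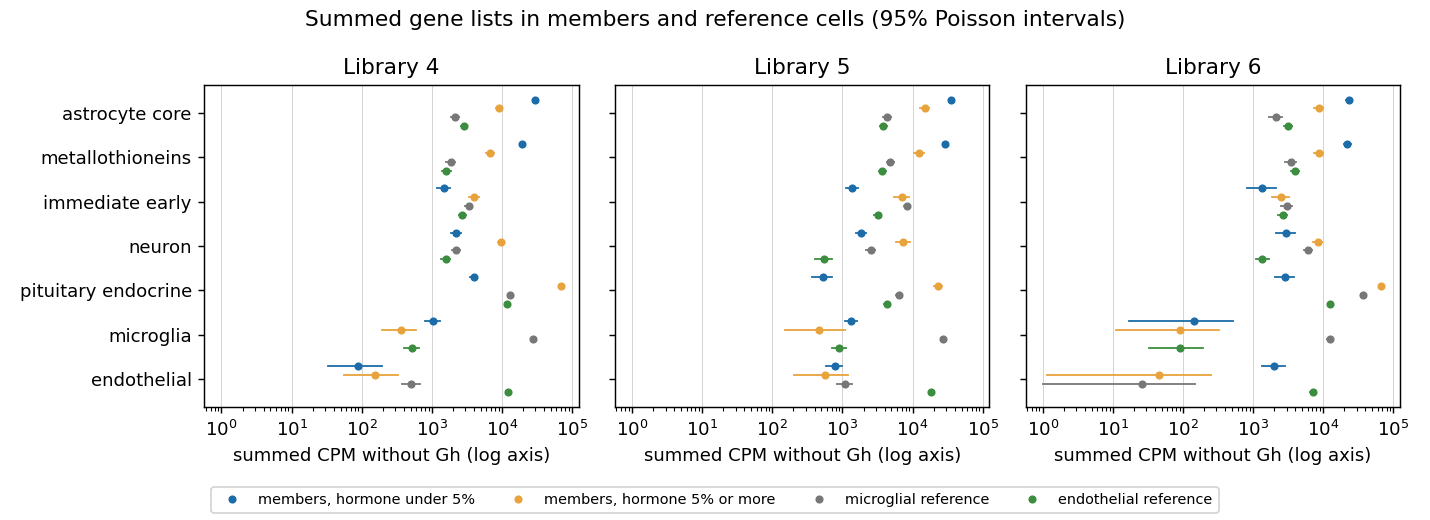
Summed levels of 7 gene lists (x axis, CPM without Gh, logarithmic) in hormone-low members, hormone-high members and both reference sets of libraries 4, 5 and 6, with Poisson 95% intervals of counting error. The astrocyte core sum was 29543, 35525 and 23277 CPM in hormone-low members and 2131, 4326 and 2099 CPM in microglial cells, and the pituitary sum was highest in hormone-high members.

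Cells of the ependymal lining and tanycytes, which are glia of the ventricle wall, were set beside the hormone-low members. These sets were not filtered by hormone share. The 191 cells with a Rax UMI (and fewer than 3 of Tmem212 and Ccdc153) had core sums of 8769, 12283 and 6715 CPM in libraries 4, 5 and 6, below those of the members. Aldoc in these cells was at 1289, 2810 and 945 CPM against 2396, 3885 and 2129 CPM in hormone-low members. The neurotensin receptor gene Ntsr2 was at 62.9, 63.2 and 44.5 CPM against 1497, 1922 and 1561 CPM. Ntrk2, the receptor for brain-derived neurotrophic factor, was at 1037, 1074 and 1134 CPM against 1393, 1415 and 852 CPM, so it did not separate both in every library. In the 424 cells with 3 or more UMIs of Tmem212 and Ccdc153, Mt3 was at 10039, 11380 and 12554 CPM, above the 4762, 5567 and 4755 CPM of hormone-low members. Sparc, which encodes a secreted matrix glycoprotein, was at 1151, 1455 and 1366 CPM in those ependymal cells and at 3354, 4766 and 4116 CPM in hormone-low members. Aqp4, the water channel of astrocytic end-feet, was at 299, 271 and 292 CPM in the ependymal cells and at 359, 267 and 284 CPM in hormone-low members. Ependymal cells and members thus shared their Aqp4 level within counting error (interval in members 230 to 535, 163 to 412 and 77.3 to 727 CPM).

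Genes that mark position along the brain were read next, since the hypothalamus label was inferred. Six3, a transcription factor of the anterior forebrain, was at 75.6, 93.4 and 83.1 CPM in members and at 0, 0 and 7.66 CPM in cells of the same rule in libraries 7, 8 and 9. Microglia of libraries 4 to 6 held 52.2, 46.7 and 78.7 CPM of Six3, and Rax cells 409, 284 and 400 CPM, so the members' level was near that of microglia and below that of Rax cells. Six6, a factor of the hypothalamus and pituitary, was at 66.2, 11.7 and 111 CPM in members, and at 0, 13.4 and 71.0 CPM in hormone-low members. Nkx2-1, which specifies the ventral hypothalamus, had 2, 1 and 0 UMIs, and Otp 2, 1 and 0. Emx1 and Emx2, factors of the telencephalon, had none. The hindbrain and midbrain factors En1, En2 and Pax3 and the Hox genes of the list had none either, while Pax3 was at 26.1, 21.4 and 12.8 CPM in libraries 7, 8 and 9. These factors were too sparse at this depth to place the members by themselves.

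Around Agt, most genes of the angiotensin system had few or no UMIs in the members, apart from Atp6ap2 and Ctsd, which also serve lysosomes in many cell types. Ace, the converting enzyme, had no UMI in any of the 3 libraries, nor had the receptors Agtr1b, Agtr2 and Mas1 or the peptidases Enpep, Anpep and Mme. A count of 0 allows up to 28.4, 35.0 and 83.1 CPM (3 counts) in libraries 4, 5 and 6. Agtr1a, the main angiotensin II receptor, had 0, 1 and 0 UMIs. The peptidases Lnpep and Prcp had at most 3 UMIs per library. Atp6ap2, the prorenin receptor and a proton pump subunit, was at 94.5, 187 and 55.4 CPM, and Ctsd, a lysosomal protease able to cleave angiotensinogen, at 331, 362 and 305 CPM against 2204, 2894 and 1128 CPM in microglia. With Agt left aside, none of the 13 other genes of the list was 2-fold above reference in any library. Over all genes of 100 CPM or more the shares were 21.3, 26.0 and 19.9%. Most genes of the list had too few UMIs for this count to say much about them.

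Around Slc6a11, genes of glycine uptake and GABA breakdown were detected, while those of GABA synthesis almost were not. The glycine transporter gene Slc6a9 was at 198, 199 and 27.7 CPM, and Abat, the enzyme that breaks GABA down, at 198, 128 and 111 CPM. The GABA-A receptor subunit gene Gabrb1 was at 180, 245 and 27.7 CPM. Slc6a13, a transporter of the meninges, had 1, 2 and 0 UMIs, and Gad1, Gad2 and Slc32a1, which make GABA and load it into vesicles, had at most 3 UMIs each per library. Of the 13 genes of the list apart from Slc6a11, 7, 9 and 2 were 2-fold above reference, against 21.3, 26.0 and 19.9% over all genes of 100 CPM or more. In library 6, with its 38 cells, the list included genes with few or no UMIs, so its count cannot be read against that share.

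Secreted proteins, lipid carriers and metallothioneins were detected in every library, but only some set the members apart. Apoe, the main lipid carrier of the brain, was at 17511, 25001 and 12540 CPM in members and at 27585, 25613 and 15429 CPM in microglia, so it did not mark the members. Cst3, a secreted protease inhibitor, was at 17114, 21486 and 12374 CPM against 30353, 25146 and 8029 CPM in microglia. Clu, a secreted chaperone, did separate them, at 2589, 3094 and 1606 CPM against 136, 327 and 236 CPM. The matricellular gene Sparcl1 was at 3468, 4811 and 2215 CPM, and Dbi, the precursor of peptides that bind the GABA-A receptor, at 2873, 4029 and 2575 CPM. Of the 17 lipid genes 12, 14 and 9, and of the 20 genes of secreted proteins 9, 13 and 7, were at least 2-fold above reference, against 21.3, 26.0 and 19.9% over all genes. The median fold of the secreted list was 1.89, 2.92 and 1.02, so in library 6 most of it was not 2-fold above reference. All 3 metallothioneins, which bind zinc and copper, were so in each library, and their sum was 14647, 26577 and 13869 CPM.

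Of 23 receptors, 8, 8 and 7 were 2-fold above reference, against 21.3, 26.0 and 19.9% over all genes of 100 CPM or more in libraries 4, 5 and 6. Ntrk2 was at 1068, 1320 and 637 CPM against 31.3, 187 and 78.7 CPM in microglia, and Ntsr2 at 1153, 1775 and 831 CPM. Fgfr3, a fibroblast growth factor receptor, was at 454, 619 and 305 CPM, and the endothelin receptor gene Ednrb at 416, 315 and 166 CPM. Of genes tied to hormones and time, 1, 1 and 0 of 8 glucocorticoid-responsive genes, 1, 1 and 0 of 6 thyroid genes and 1, 1 and 2 of 15 clock genes were 2-fold above reference. The clock list summed to 1493, 1086 and 1246 CPM in members against 1991, 1380 and 1184 CPM in libraries 7, 8 and 9. None of the 15 immediate early and dissociation genes was 2-fold above reference in any library.

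Of 11 reactive astrocyte genes, 3, 3 and 2 were 2-fold above reference. The shares over genes of 100 CPM or more, a minimum the list did not have, were 21.3, 26.0 and 19.9%. The list summed to 501, 888 and 803 CPM against 896, 689 and 528 CPM in libraries 7, 8 and 9. C4b, a complement gene, was at 56.7, 140 and 249 CPM in members against 138, 178 and 79.1 CPM there. Timp1, Steap4 and Osmr, which are induced by inflammation, had no UMI in members. Gfap, the intermediate filament protein of fibrous and reactive astrocytes, was at 180, 479 and 388 CPM against 497, 303 and 174 CPM. The ranges of libraries 4 to 6 and 7 to 9 overlapped for the list sum and for Gfap.

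Levels were then compared with cells of the same rule in libraries 7, 8 and 9, by counting genes whose 3 values in libraries 4 to 6 all lay above or all lay below the other 3. Of 2553 genes with 100 CPM or more in 1 of the 6 libraries, 556 lay above (21.8%) and 223 below (8.73%). In hormone-low members 465 of 2837 lay above (16.4%) and 150 below (5.29%). Of the genes called in all members, 250 of the 556 above and 121 of the 223 below were also called in hormone-low members. The median over all tested genes, libraries 4 to 6 relative to 7 to 9, was 0.21 on the log2 scale (10 CPM added) in all members and 0.22 in hormone-low members. With Gh left in the totals, 268 genes lay above and 402 below, and with hormone, hemoglobin and mitochondrial genes left out, 491 and 308. The split between both directions thus moved with the totals, and the genes that lay on 1 side under all 3 are pointed out.

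Calls among the astrocyte core genes were on the lower side in all members and on both sides in hormone-low members. Of 24 tested core genes 0 lay above and 6 below (among them Slc1a2, Aqp4, Gja1, Slc4a4 and S1pr1), with a median difference of -0.62 on the same scale. In hormone-low members 4 lay above (Ntsr2, Mlc1, Mt3 and S100b) and 4 below (among them Aqp4, Gja1 and Slc4a4), with a median of -0.24. With Gh in the totals 0 core genes lay above and 11 below in all members (median -0.91), and without possible doublets 4 lay above and 7 below. Over all genes 556 of 2553 lay above and 223 below in all members, and 465 of 2837 above and 150 below in hormone-low members. With Gh in the totals 268 of 2120 lay above and 402 below, and without possible doublets 470 of 3251 above and 164 below. Aqp4, Gja1 and Slc4a4 lay below in all members, in hormone-low members and without possible doublets, each under all 3 kinds of total.

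Aqp4 had the widest gap of these 3. It was at 255, 269 and 138 CPM in members of libraries 4, 5 and 6 against 698, 652 and 760 CPM in libraries 7, 8 and 9. In hormone-low members it was at 359, 267 and 284 CPM, and the lower ends of the intervals of libraries 7, 8 and 9 were 602, 567 and 677 CPM, above the upper ends in libraries 4 and 5 but not the 727 CPM of library 6. An Aqp4 UMI was found in 16.7, 12.6 and 7.89% of members and in 40, 37.1 and 49.3% of cells of libraries 7, 8 and 9. Thinned to 300 UMIs these were 8.89, 8.33 and 2.63% against 17.4, 19.3 and 20.5%, and microglia of libraries 4 to 6 held 0.680, 2.24 and 2.78% unthinned.

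Slc4a4, the sodium bicarbonate cotransporter of astrocytes, was at 680, 747 and 471 CPM against 1191, 1282 and 1128 CPM, and at 928, 748 and 639 CPM in hormone-low members. Gja1 was at 1153, 1202 and 994 CPM in hormone-low members against 1614, 1900 and 1340 CPM. The genes of the water channel, the bicarbonate cotransporter and the gap junction thus each had lower point values in libraries 4 to 6. The call did not ask for intervals to be apart, and library 6 had only 17 hormone-low members. The rule genes chose the cells of all 6 libraries, so their levels are a description. Agt was at 2815, 4539 and 1987 CPM in hormone-low members against 2420, 2947 and 1705 CPM, and Slc6a11 at 2216, 2056 and 1490 CPM against 2054, 2216 and 1697 CPM, overlapping for both genes. Slc1a2 in hormone-low members (1737, 2189 and 1348 CPM) overlapped libraries 7 to 9 (2196, 2142 and 2052 CPM) as well, but lay below with hormone, hemoglobin and mitochondrial genes left out of the totals.

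The 12 lower genes with the widest gaps were named among those 2-fold above reference in the library with their highest value, which for lower genes is 1 of libraries 7 to 9. In the members themselves some were near or below reference, such as Loxl2, Sema6d and Wsb1. Besides Aqp4 and Slc4a4 the 12 were Loxl2, Sema6d, Elovl5, Omg, mt-Nd4l, Grin2c, Sdc3, Adgrb3, Wsb1 and Npas3. All 12 lay below in hormone-low members too, against 121 of the 223 lower genes in all. They were chosen for their gaps, and the hormone-low comparison reused many of the same cells, so this is not separate support. Loxl2, a collagen cross-linking enzyme, was at 9.45, 11.7 and 0 CPM against 138, 162 and 28.1 CPM, with higher references of 0, 10.9 and 14.9 CPM in libraries 4 to 6. Grin2c, the NMDA receptor subunit known from cerebellum and astrocytes, was at 47.3, 0 and 27.7 CPM against 116, 97.9 and 79.1 CPM. Npas3, a transcription factor of astrocytes, was at 47.3, 128 and 55.4 CPM against 191, 190 and 194 CPM.

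On the higher side, hormone-low members had 2 of 3 metallothioneins and a few other astrocyte genes. Mt2 was at 3564, 5781 and 4826 CPM against 2047, 3436 and 2182 CPM, and Mt3 at 4762, 5567 and 4755 CPM against 2674, 3418 and 2480 CPM. Mt1 (10946, 17262 and 12490 CPM) overlapped libraries 7 to 9 (7578, 11178 and 7520 CPM), but lay above without possible doublets. For the 3 metallothioneins 0 lay above in all members and 2 in hormone-low members, with medians of 0.27 and 0.83. Without possible doublets 3 lay above, with a median of 1.08, and the median in all members was -0.02 with Gh in the totals. Over all genes 21.8% lay above in all members, 16.4% in hormone-low members and 470 of 3251 without possible doublets. Sparc was at 3354, 4766 and 4116 CPM against 1729, 2427 and 1600 CPM. S100b, a calcium-binding protein, was at 599, 507 and 426 CPM against 254, 315 and 242 CPM, and Mlc1, a membrane protein of end-feet, at 584, 828 and 568 CPM against 459, 367 and 385 CPM. Mt2, Mt3, Sparc, S100b, Mlc1 and Dbi lay above in hormone-low members and without possible doublets under all 3 totals, but not in all members. Itih3, a hyaluronan-binding protein of non-telencephalic astrocytes, did not differ in this way (1647, 2096 and 639 CPM against 1169, 1322 and 819 CPM).

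**Figure D4:**
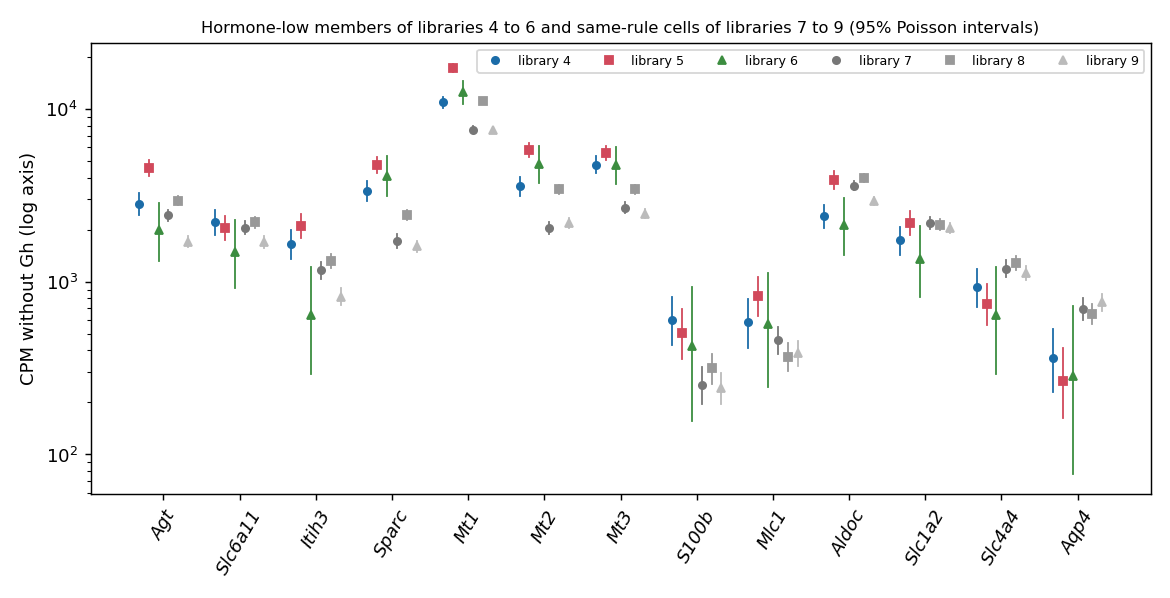
Levels of 13 genes (y axis, CPM without Gh, logarithmic) in hormone-low members of libraries 4, 5 and 6 and in cells of the same rule of libraries 7, 8 and 9, with Poisson 95% intervals of counting error. Aqp4 is at 359, 267 and 284 CPM against 698, 652 and 760 CPM, and Sparc at 3354, 4766 and 4116 CPM against 1729, 2427 and 1600 CPM, while Agt and Slc6a11, which chose the cells, overlap.

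Of the 12 higher genes with the widest gaps that were 2-fold above reference in the library with their highest value, Lhb, the beta subunit of luteinizing hormone, came first with 765, 981 and 1163 CPM against 0, 0 and 5.10 CPM. It rested on 1 barcode per library, with 53 of 81, 81 of 84 and 42 of 42 UMIs, and its higher references were 1881, 915 and 262 CPM. In hormone-low members Lhb was at 344, 40.1 and 0 CPM and was not called. The others were 6330403K07Rik, Rcn3, Podxl2, Mia, Six6, Rab11fip2, Pde10a, Galnt16, Tmem59l, Pnmal2 and Gprasp1. Of these, Rcn3, Podxl2, Six6, Rab11fip2, Pde10a and Tmem59l were not called in hormone-low members. The uncharacterised transcript 6330403K07Rik was at 690, 350 and 969 CPM against 48.6, 91.8 and 76.6 CPM, and in hormone-low members at 958, 361 and 1845 CPM. Its higher references were 209, 545 and 447 CPM in libraries 4, 5 and 6 and at most 34.9 CPM in libraries 7 to 9, so it was below reference in library 5 and other cells differed between the libraries too. In library 4, 44 of the 73 UMIs of 6330403K07Rik lay in 1 hormone-low member. Galnt16, an enzyme that starts O-linked glycans, was at 132, 81.7 and 166 CPM against 33.6, 36.7 and 30.6 CPM. Gprasp1, which sorts G protein-coupled receptors for degradation, was at 170, 245 and 166 CPM against 52.3, 85.7 and 58.7 CPM. These last 3 lay above in all 3 sets of members under all 3 totals, as did Dlk1 (775, 397 and 1440 CPM against 14.9, 6.12 and 2.55 CPM) and Meg3, the maternally expressed RNA of the Dlk1 locus. Meg3 was itself one of the genes that defined possible doublets, so its call without them is not separate support. Meg3 and Dlk1 were not 2-fold above reference in library 6, where both were highest, and both moved with the hormone RNA among the members. In hormone-low members Dlk1 was at 104.8, 93.45 and 141.9 CPM, below its higher references of 282, 497.9 and 918.4 CPM in libraries 4, 5 and 6. Mia and Fos lay above in all members and in hormone-low members but not without possible doublets.

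Other genes with wide gaps were less than 2-fold above reference in the library of their highest value. They were Cga, Prl, Dlk1, Avp, Fshb, Epcam, Bex4 and Dapl1. Fshb, Epcam, Bex4 and Dapl1 were not called in hormone-low members. Avp, the vasopressin precursor of hypothalamic neurons, was at 293, 81.7 and 222 CPM against none in libraries 7 to 9. Of the 8 pituitary genes tested 7 lay above in all members, and 3 of 6 in hormone-low members, against 21.8 and 16.4% over all genes.

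Immediate early and heat shock genes, which cells switch on soon after stimulation or dissociation, moved with the hormone share of the barcodes. All 8 tested genes lay above in all members, with a median of 1.98, and 3 of 7 in hormone-low members (Fos, Jund and Hsp90aa1), with a median of 0.85. With Gh in the totals 5 of 8 lay above in all members, and without possible doublets 0 of 4. Over all genes 21.8% lay above in all members and 16.4% in hormone-low members. With Gh in the totals 268 of 2120 genes did so in all members, and without possible doublets 470 of 3251. The list summed to 2400, 2090 and 2049 CPM in members against 695, 658 and 931 CPM in libraries 7, 8 and 9. It was at 1482, 1388 and 1348 CPM in hormone-low and at 3971, 6988 and 2496 CPM in hormone-high members. Microglia of libraries 4 to 6 held 3374, 8247 and 3018 CPM, more than the members as a whole, and the part of the hormone share was not tested. Fos itself was at 378, 420 and 360 CPM against 67.2, 82.6 and 123 CPM.

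Among the lists of function, calls were few. Of 7 glutamate genes 0 lay above and 3 below (Slc1a2, Slc38a3 and Slc7a11), and none in either direction in hormone-low members. Of 5 GABA and glycine genes 0 lay above and 3 below (Slc6a9, Gabrb1 and Gabrg1), of which Gabrb1 alone remained below in hormone-low members. Of 14 lipid genes 0 lay above and 3 below (Sqle, Insig1 and Msmo1, all of sterol synthesis or its control), and in hormone-low members Apoe, Dbi and Prdx6 lay above and Msmo1 below. Of 15 secreted genes 0 lay above and 3 below (Igfbp2, Ptn and Metrn), and in hormone-low members Apoe, Cst3 and Sparc lay above and Igfbp2 below. Of 10 receptors 0 lay above and 1 below, and in hormone-low members Thra, a thyroid hormone receptor, and Ntsr2 lay above. Read against 21.8 and 8.73% over all genes (16.4 and 5.29% in hormone-low members), each of these counts rests on 3 genes or fewer. Markers of other cells moved as well, since 0 of 8 microglial genes lay above and 7 below, and 4 of 4 blood genes lay below.

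The 3 libraries of members differed among themselves in 177 of 2356 genes (7.51%), counted where the highest library was at least 2-fold the lowest with 10 CPM added and their intervals were apart. Only 71 of the 177 were 2-fold above reference in the library with their highest value. Of these 71, 54 were highest in library 5 and 47 lowest in library 6. Since the filter was read in the library where a gene was highest, this tally is a description. Over all 177, libraries 4, 5 and 6 were highest for 23, 78 and 76 genes. In hormone-low members 86 of 2689 genes (3.2%) differed, 27 of them 2-fold above reference, and 48 were shared with the 177. For the 86 these numbers were 13, 21 and 52, so library 6 and not library 5 then held the most high values. Its 17 hormone-low members held only 14091 UMIs without Gh, against 66784 and 74905 in libraries 4 and 5, so few UMIs gave high values. Of the genes named below, Lmna, RP23-218K15.3, Yipf1 and Clip1 were highest in library 6 on 4, 4, 5 and 4 UMIs. Of 24 core genes 13 differed in all members and 5 in hormone-low members. The share of hormone-high members was highest in library 6, and neither its part nor that of depth was tested.

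Pomc, the precursor of corticotropin and melanocortins, had 2347, 4 and 457 UMIs in 52, 4 and 26 members of libraries 4, 5 and 6. At most 631 and 188 of them were in 1 cell of library 4 and of library 6. Some of the other wide differences came mostly from single cells. Gnrh1, the gonadotropin-releasing hormone gene, was at 0, 1366 and 0 CPM, and 116 of its 117 UMIs were in 1 cell of library 5 that also held 13 core UMIs and 2 of Agt. Prl had 129, 27 and 777 UMIs, 647 of them in 1 cell of library 6, and Hbb-bs, a hemoglobin gene, had 383, 234 and 1 UMIs, of which 192 and 151 lay in 1 cell each. Hba-a1, Hba-a2 and Hbb-bt, also hemoglobin genes, had 202, 169 and 38 UMIs in library 5, of which 131, 118 and 36 lay in 1 cell. The values of Gnrh1, Prl and the hemoglobin genes thus rest largely on 1 barcode in a library.

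Htra1, Gpld1, Spon1 and Lrig1 differed through UMIs spread over cells. Htra1 was at 265, 514 and 0 CPM, from 28, 44 and 0 UMIs in 21, 36 and 0 cells in all members. Among genes 2-fold above reference, it had the second largest ratio in hormone-low members, after Gnrh1. Gpld1, which releases proteins from their lipid anchors, had 16, 31 and 0 UMIs in hormone-low members, and Spon1, a matrix protein, 9, 31 and 0. In all members Gpld1 had 21, 33 and 2 UMIs and Spon1 had 12, 33 and 1. Lrig1, a brake on growth factor receptors, had 18, 19 and 0 UMIs in all members. It was not called in hormone-low members, where it had 14, 15 and 0. In all members the other genes named by the same rule were Acta2, Eci1, Gde1, Oscp1, Cdk16 and Arid1b, none of them called in hormone-low members. In hormone-low members the others were Lmna, RP23-218K15.3, Yipf1, Sgip1 and Clip1. Several of these genes rested on few UMIs.

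The core genes did not follow in 1 order which rule gene had chosen a member. In library 4 the core sum was 17264 CPM in cells with Agt alone, 24564 with Slc6a11 alone and 23053 with both. In library 5 these sums were 31376, 33664 and 33913 CPM, and in library 6 they were 16852, 9257 and 14156 CPM. The set with the lowest sum was Agt alone in libraries 4 and 5 and Slc6a11 alone in library 6. In library 4, 41.4% of cells with Agt alone were hormone-high, against 21.1% with Slc6a11 alone and 25.6% with both, while in library 5 the shares were 9.38, 9.09 and 10.3% and in library 6 they were 58.3, 60 and 52.4%.

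Gfap divided the members into a small and a large part. A Gfap UMI was held by 14, 21 and 8 members, or 10.1, 11.5 and 21.1%, and by 0% of microglial cells, with exact upper limits of 2.48, 2.71 and 9.74%. Thinned, the shares in members were 6.67, 8.33 and 10.5%. None of the Gfap-positive members of libraries 4 and 5, and 25% in library 6, were hormone-high, against 31.5, 11.2 and 63.3% of the others. Clu was at 6216, 6106 and 3989 CPM with Gfap and 2291, 2733 and 1129 CPM without it. Aldoc was at 2984, 5779 and 3158 CPM with and 1728, 3387 and 996 CPM without, and Mt1 at 15415, 29983 and 16124 CPM with and 7936, 14399 and 6809 CPM without. Slc1a3 had no such order, at 1989, 1962 and 1829 CPM with and 1555, 2511 and 565 CPM without. In libraries 7, 8 and 9, which held no hormone-high cell, Clu was also higher with Gfap (5030, 4648 and 3422 CPM against 3115, 2689 and 1940 CPM). There Aqp4 was at 1497, 1085 and 942 CPM with and 555, 604 and 727 CPM without a Gfap UMI. In libraries 4 to 6 Aqp4 was at 124, 218 and 665 CPM with Gfap and 266, 275 and 33.2 CPM without, but the intervals with Gfap were wide (3.15 to 693, 26.4 to 788 and 181 to 1702 CPM) and no order could be read.

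Across all genes, 68 of 5681 were at least 2-fold higher with a Gfap UMI in each of the 3 libraries (1.2%) and 301 at least 2-fold lower (5.3%). The higher genes with the largest ratios, Sulf2, Fgf2, Mcc, Dbndd2, Hey1, Med4, Fopnl, Hopx, Sdsl and Thop1, rested on 1 to 3 UMIs each per library. The lower ones, Lhb, Ier2, Gltscr2, Impact, Hnrnpr, Rpl9-ps6, Psip1, Fubp1, Kdelr2 and Snhg20, had no UMI in the Gfap-positive members. Those are too few counts to describe a gene of either kind. In the Gfap-positive members 1 UMI stood for 124.3, 109 and 166.2 CPM in libraries 4, 5 and 6, and intervals did not have to be apart. A gene without a UMI there could thus count as lower, so the excess of 301 over 68 cannot be read as a result.

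Variation from cell to cell was read only for genes far above counting error. At a mean of 0.05 UMIs per cell, the minimum used, the measure rests on few UMIs. The ratio of the variance over members to that of Poisson sampling had a median of 0.92 over 1161 genes (the lowest of the 3 libraries for each gene) and of 1.13 over 23 core genes, and exceeded 2 for 32 genes. The 10 highest were Cga, Lhb, Malat1, mt-Co3, Apoe, Cst3, mt-Atp6, Vps8, Mia and mt-Nd1. Cga, the shared alpha subunit of pituitary hormones, had ratios of 127, 136 and 75.9, and 1 cell of library 4 held 206 of the 334 UMIs there. In hormone-low members, where the choice of cells removes the pituitary genes, Mt1, Meg3 and mt-Cytb were in the list, Mt1 with ratios of 5.73, 4.65 and 5.33. Apoe, with ratios of 17.0, 7.13 and 19.1 in all members, stayed in the list of both sets.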

How the data were processed

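The deposited table holds UMI counts (18634 genes in 29571 cells, 9 libraries), which the authors made with Cell Ranger 2.2.0 and R 3.5.3 on GRCm38 as named in the submitters' processing notes. The counts were read as deposited, with no further cell filter, and reads were not reprocessed. Libraries 4, 5 and 6 held 3965301, 2121900 and 5488950 UMIs. The members and the 28 gene lists were chosen with earlier results of these data known, and 1 listed gene was not in the table. A few listed genes are not reported here by name.

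UMIs were summed over the members of each library and divided by their total without Gh. Intervals are exact Poisson intervals for levels and exact Clopper-Pearson intervals for shares of cells, at 95%, and cover counting error only. With 1 library each, no test was made. No doublet caller was run; barcodes with 2 or more UMIs of another cell type's list were counted instead. Microglial reference cells held 5 or more UMIs of 7 genes (among them C1qa, C1qb, C1qc, Cx3cr1, P2ry12 and Ctss) and endothelial ones 4 or more of 4 (Cldn5, Flt1, Ly6c1, Itm2a), both without Agt and Slc6a11. A gene was tested for overlap between libraries if it reached 100 CPM in 1 of them, and libraries with under 50 cells of the rule were left out. Named genes were the rule genes, examples from the lists, the 12 widest gaps in each direction among genes 2-fold above both references, the 10 largest ratios between libraries 4 to 6 among such genes and the 5 largest among the others. The 10 largest in each direction of the Gfap split and the 10 largest variance ratios were named too. Genes outside this rule that are set beside neighbouring cell types or summarised across totals were chosen after their values were seen. Alternatives were other minima (50 and 300 CPM), other totals, stricter members, subtraction of free RNA and leaving out libraries. The counting was run on simulated Poisson counts with known changes. They had no extra variation between cells or libraries, so they do not give the rate of false calls in these data. Python 3.11.15, numpy 2.4.6, scipy 1.17.1 and matplotlib 3.10.9 were used.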

Additional observations from a re-analysis of the deposited data

How the results depend on the processing

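No paired analysis was possible because no library was assigned to a sleep group and no result came from a test. The hormone-low setting, and every alternative for the list levels, were chosen after the data were seen. The 779 genes whose levels did not overlap between libraries 4 to 6 and 7 to 9 became 1365 with a minimum of 50 CPM, 271 with 300 CPM and 220 after free RNA was subtracted. Leaving out library 4, 5 or 6 gave 931 to 1212, but no overlap is easier to meet with fewer libraries. The other settings gave 615 to 799. The share of them lying above was 71.4%, but 40% with Gh in the totals, 55.9% with free RNA subtracted and 61.4% without hormone, hemoglobin and mitochondrial genes. The 177 genes that differed between libraries 4, 5 and 6 became 44 without possible doublets and 86 in hormone-low members. They became 47 to 134 when a library was left out, 47 of them without library 5 and 61 without library 6. With fewer libraries the ratio of highest to lowest can only stay the same or fall. The 369 genes that differed with a Gfap UMI became 1276 with 50 CPM, 59 with 300 CPM and 556 without hormone, hemoglobin and mitochondrial genes. They became 224 without possible doublets, 882 in hormone-low members and 701, 747 and 658 without library 4, 5 and 6. All these counts rest on the sparse sums of the Gfap-positive members, and agreement in fewer libraries is easier to meet.

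Asking for 3 UMIs of the rule genes left 179 members (74, 89 and 16 in libraries 4, 5 and 6), cells of at least 1000 UMIs left 64 (32, 15 and 17) and removing possible doublets left 207 (77, 123 and 7). Hormone-low members numbered 17 in library 6. The core sum in libraries 4, 5 and 6 was 28106, 39340 and 15977 CPM with 3 UMIs, 17985, 28727 and 10770 CPM with Gh in the totals, 36033, 41879 and 33967 CPM without possible doublets and 29543, 35525 and 23277 CPM in hormone-low members. The metallothionein sum was 17617 and 30801 CPM in libraries 4 and 5 with 3 UMIs (13933 CPM in library 6), 11985, 23186 and 10416 CPM with Gh in the totals, 25262, 35205 and 35520 CPM without possible doublets and 19271, 28610 and 22071 CPM in hormone-low members. The cause of these shifts was not tested. Library 6 rests on 38 cells, 21 of them hormone-high, and its single-gene values carry the widest intervals. Genes under 3 UMIs in a library could not be told from 0 at this depth.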
